A study of Mus musculus with 6 samples.

Results

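The phosphate transporters of the kidney and the receptors through which parathyroid hormone (PTH) and the hormone FGF23 control them were compared between mice that express the soluble intracellular domain of megalin and their wild type littermates. The members were chosen by name: 9 genes (Slc34a1, Slc34a2, Slc34a3, Slc20a1, Slc20a2, Pdzk1, Pth1r, Kl and Fgfr1), which were represented by 15 probe sets of the 45037 tested, each annotated to 1 gene symbol. Megalin takes up filtered proteins in the proximal tubule, and when its tail is cleaved this intracellular domain (ICD) is set free. The 3 ICD animals, titled TG, were heterozygous for the domain and the 3 controls were wild type (WT) littermates; all 6 were male and 10 weeks old, and RNA of adult kidney from each animal was hybridised to 1 Affymetrix array. The promoter or cell type that drives the domain is not given in the sources used here.

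Filtered phosphate is recovered almost entirely in the proximal tubule, where sodium-phosphate cotransporters of the SLC34 family sit in the brush border membrane and are held there by PDZ scaffold proteins. PTH, acting through its receptor Pth1r, and FGF23, acting through the fibroblast growth factor receptor Fgfr1 with klotho (Kl) as its co-receptor, both cause these transporters to be withdrawn from the membrane and so raise phosphate loss in urine. This control acts largely on the transporter proteins, which arrays of RNA do not measure.

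Values are on a log2 scale after RMA. This method corrects background, gives the probe intensities of all arrays the same distribution and then combines the probes of a probe set. Array medians lay between 6.62 and 6.66, and the values ran from 3.11 to 15.11. Of megalin's own probe sets, 1427133_s_at of Lrp2 read 12.25, 12.37 and 12.26 in ICD kidneys, against 13.01, 12.97 and 12.13 in WT kidneys. The array labelled WT 3 thus read like the ICD arrays at this probe set, whereas at the probe set 1452320_at of Lrp2 the groups averaged 12.83 each. Mean correlation with the other arrays was 0.9952 for WT 3 and 0.9954 to 0.9961 for the others. On WT 3, 31 of the 45037 probe sets lay at least 1 above the median of the other 5 arrays, against 21 to 42 for each other array. On the low side WT 3 stood apart: 71 probe sets lay at least 1 below that median, against 28 to 38 for each other array. Differences of the members and of the named pathway genes are therefore given with and without WT 3, and this array is named as it was labelled.

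None of the 15 probe sets passed the limma test at adjusted p under 0.05, where 0 of all 45037 passed (0%). Without WT 3 again no member passed, where 1 of all probe sets did (0.00222%). Adjusted p of the members in limma lay between 0.894 and 0.996 with all arrays, and between 0.969 and 1.00 without WT 3. At unadjusted p under 0.05 there were 0 of 15 members, against 5.86% of all probe sets. Without WT 3 there were again 0 of 15, against 5.53% of all probe sets. All 15 confidence intervals (95%, from the limma fit) included 0, and the reach of these intervals to each side had a median of 0.19. The single large difference among the members, at Slc34a3, rested on WT 3.

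The promoters of the 2 renal SLC34 genes are shown first, because Slc34a1 and Slc34a3 serve the same task in the same tubule. Any link between these sequences and the spread of the 2 genes over the arrays was not tested. RefSeq windows on GRCm38.p6, from 250 bases before to 50 after a start site, were found for 7 of the 9 members. Capitals mark matches, on either strand, to any of 5 short motifs: GTTAAT, the arm that is repeated in the binding site of the tubular factor HNF1, AGGTCA, the hexamer bound by nuclear receptors such as the vitamin D receptor, TATAAA, the TATA box, GGGCGG, the GC box, and GCGTGGGCG, the site of early growth response factors. None of the matches shown overlaps another.
Slc34a1, chr13:55399398-55399697, plus strand: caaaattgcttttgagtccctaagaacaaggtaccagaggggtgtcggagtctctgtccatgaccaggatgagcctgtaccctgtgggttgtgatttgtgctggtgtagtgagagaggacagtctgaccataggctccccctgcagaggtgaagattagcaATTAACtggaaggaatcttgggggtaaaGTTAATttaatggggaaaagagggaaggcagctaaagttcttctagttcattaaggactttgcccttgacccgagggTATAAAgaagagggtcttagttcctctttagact
Slc34a3, chr2:25234185-25234484, minus strand: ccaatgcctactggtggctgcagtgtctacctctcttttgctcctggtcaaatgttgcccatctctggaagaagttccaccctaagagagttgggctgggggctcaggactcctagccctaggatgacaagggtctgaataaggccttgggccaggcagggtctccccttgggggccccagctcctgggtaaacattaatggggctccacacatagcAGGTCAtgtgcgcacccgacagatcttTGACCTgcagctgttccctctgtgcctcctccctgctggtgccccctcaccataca

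The Slc34a1 window held 2 HNF1 arms, at -89 to -84 and at -61 to -56 from the start site. It also held 1 match to the TATA box letters, at 17 to 22, which is after the start site and not before it. The Slc34a3 window held neither motif in these letters, but 2 nuclear receptor hexamers in opposite orientation, at -33 to -28 and at -6 to -1. Among 32851 promoter windows of the same length, at least 1 HNF1 arm was present in 7.10%, the nuclear receptor hexamer in 16.3% and the TATA box in 13.6%. The share of windows with 2 matches was not computed. Among the members, the hexamer also occurred in windows of Slc20a1 and Pdzk1. The GC box was present in 35.7% and the early growth response site in 0.612%, and neither occurred in the Slc34a1 or Slc34a3 window. These matches describe letters only.

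Slc34a1 encodes NaPi-IIa, the main phosphate cotransporter of the mouse brush border. Its probe set 1423279_at read 14.14, 14.14 and 14.22 in ICD kidneys, against 14.17, 14.14 and 13.92 in WT kidneys. WT 3 was lowest, and the other 5 arrays lay within 0.084 of each other. The difference, ICD minus WT, was 0.088 on the log2 scale (interval -0.10 to 0.28), or 1.06-fold with an interval of 0.932 to 1.21. Without WT 3 it was 0.011 (interval -0.16 to 0.19). This probe set was brighter than 99.9% of all probe sets.

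Slc34a3 encodes NaPi-IIc, a second brush border cotransporter, which is most abundant around weaning in rodents and whose loss in humans causes hereditary hypophosphataemic rickets with hypercalciuria. Its only probe set, 1439519_at, read 9.35, 9.13 and 9.16 in ICD kidneys, against 9.24, 8.68 and 6.46 in WT kidneys. WT 1 lay among the ICD arrays, WT 2 lay below them, and WT 3 stood at -2.70 from the median of the other 5 arrays, which themselves spanned 0.67. The ICD mean was 9.21 ± 0.12 and the WT mean 8.12 ± 1.47 (SD, n = 3 each). The difference of 1.09 ± 0.59 (SE) had an interval of -0.27 to 2.44, which allows anything from 0.829-fold to 5.43-fold (limma adjusted p = 0.904).

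Without WT 3 the Slc34a3 difference was 0.25 (interval -0.12 to 0.63), or 1.19-fold with an interval of 0.918 to 1.55 (limma adjusted p = 0.983). Leaving out any other single array gave differences of 1.02 to 1.64. The SD of this probe set over the 6 arrays, 1.11, exceeded that of 99.9% of all probe sets. In the order of how far WT 3 lay below the other arrays, Slc34a3 was number 6 of 45037. Slc34a1 was number 3316 in that order, and the remaining members came later.

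Slc34a2 encodes NaPi-IIb, the cotransporter of intestine and lung. Its probe set 1416854_at read 7.53, 7.35 and 7.44 in ICD kidneys, against 7.36, 7.45 and 7.81 in WT kidneys. Here WT 3 was the highest array, 0.37 above the median of the others, opposite to Slc34a1 and Slc34a3. The difference was -0.10 (interval -0.37 to 0.17) with all arrays and 0.032 (interval -0.17 to 0.23) without WT 3, so that its sign rested on that array.

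**Figure D1:**
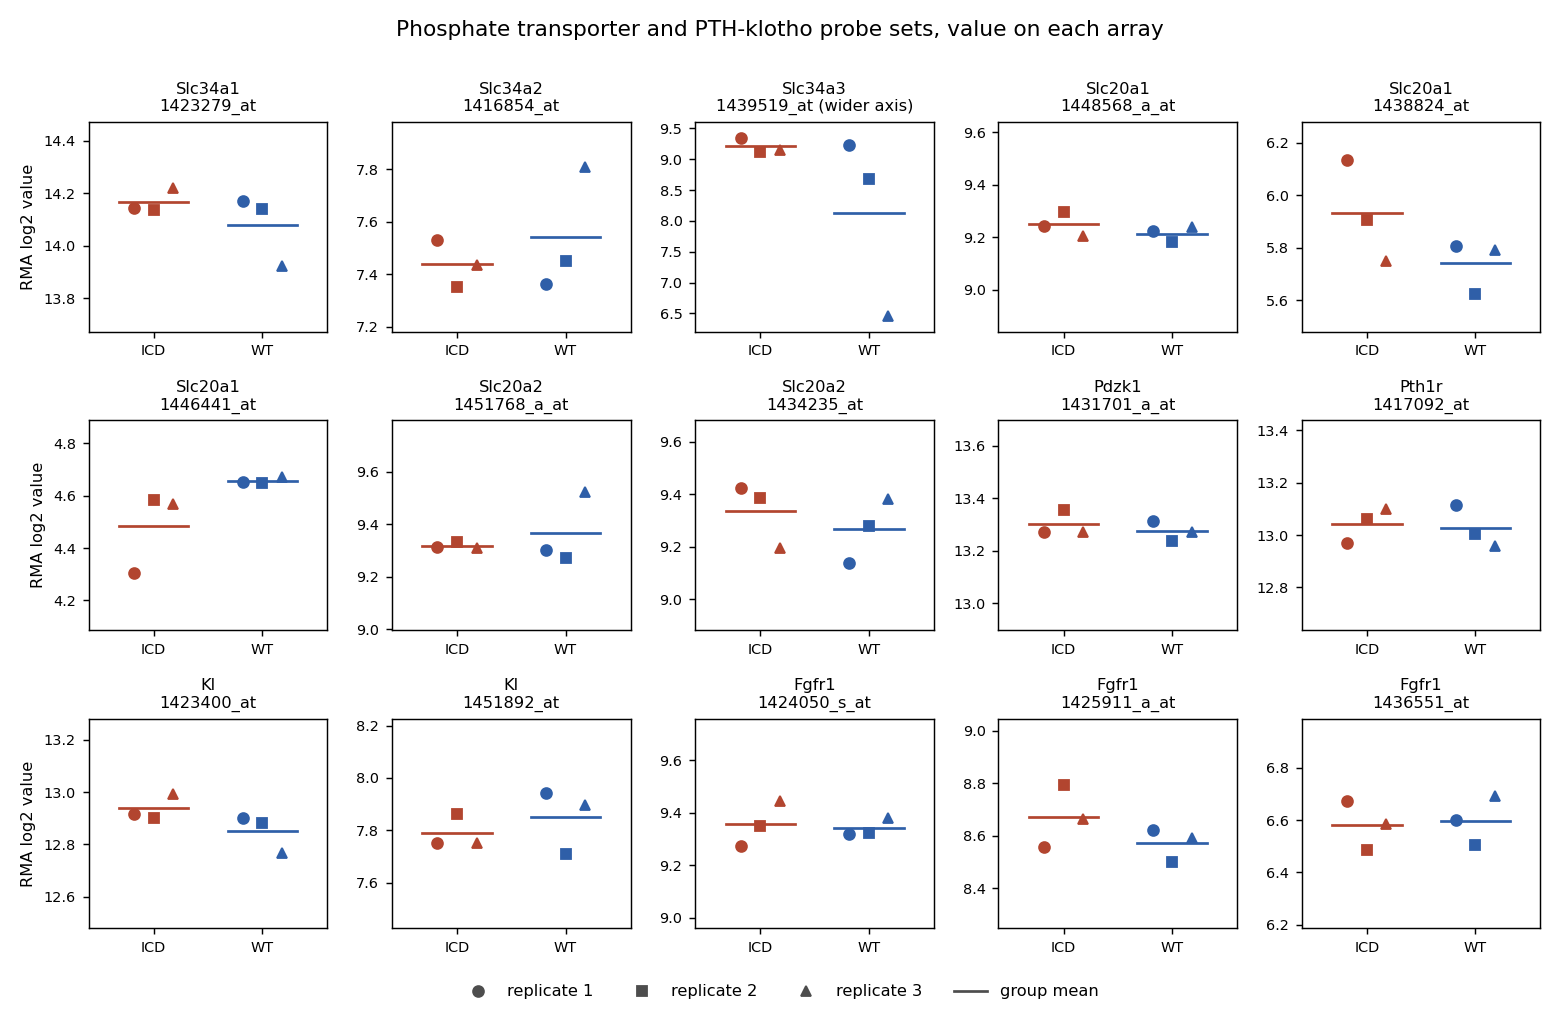
RMA log2 value of each of the 15 member probe sets on each array, with ICD kidneys left and WT kidneys right, marker shape for the replicate number and a line for the group mean. Every panel spans the same height except Slc34a3, whose axis is wider because WT 3 read 6.46 there while the other arrays read 8.68 to 9.35.

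The SLC20 family, PiT-1 (Slc20a1) and PiT-2 (Slc20a2), consists of widely expressed sodium-phosphate transporters, of which PiT-2 is also found in the proximal tubular brush border. The bright Slc20a1 probe set 1448568_a_at read 9.24, 9.30 and 9.21 in ICD kidneys, against 9.22, 9.18 and 9.24 in WT kidneys. These 6 values lay within 0.12 of each other, and the groups overlapped. The difference was 0.035 (interval -0.11 to 0.18), and 0.047 without WT 3. Its SD over the arrays was among the lowest 3.49% of all probe sets.

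The other Slc20a1 probe sets were dim and went in opposite directions. At 1446441_at, which averaged 4.57 over the 6 arrays, the ICD arrays read 4.30, 4.58 and 4.57, against 4.65, 4.65 and 4.67 in WT arrays. The groups did not overlap there, and ICD 1 was the lowest array. The difference was -0.17 (interval -0.37 to 0.030, limma adjusted p = 0.894), -0.16 without WT 3 and -0.080 without ICD 1. At 1438824_at the ICD arrays read 6.14, 5.91 and 5.75, against 5.81, 5.62 and 5.79 in WT arrays, with ICD 1 the highest. The difference was 0.19 (interval -0.053 to 0.43), 0.22 without WT 3 and 0.088 without ICD 1. ICD 1 was therefore the extreme array of both dim probe sets, at opposite ends. Averaged over its 3 probe sets, Slc20a1 differed by 0.018.

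Slc20a2 was measured by a pair of probe sets of similar brightness that also differed in sign. The probe set 1451768_a_at read 9.31, 9.33 and 9.31 in ICD kidneys, against 9.30, 9.27 and 9.52 in WT kidneys. The WT 3 value was the highest, by 0.21 over the median of the others, which spanned 0.060. Its difference was -0.048 (interval -0.23 to 0.14), and 0.031 (interval -0.14 to 0.20) without WT 3. The probe set 1434235_at read 9.43, 9.38 and 9.20 in ICD kidneys, against 9.14, 9.28 and 9.38 in WT kidneys, and its difference was 0.069 (interval -0.14 to 0.28). That difference was 0.13 (interval -0.10 to 0.36) without WT 3 and 0.0053 without WT 1. With all arrays the ranges of the groups overlapped for both, but without WT 3 they did not overlap for 1451768_a_at.

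Pdzk1, the PDZ domain scaffold that binds the tail of NaPi-IIa, had 1 of the smallest spreads among the members. It read 13.27, 13.36 and 13.27 in ICD kidneys, against 13.31, 13.24 and 13.27 in WT kidneys (1431701_a_at). The WT 3 value lay at the median of the other arrays, unlike that of Slc34a1. The difference was 0.026 (interval -0.13 to 0.18), or 1.02-fold with an interval of 0.917 to 1.13, and 0.025 without WT 3.

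Pth1r, the receptor that carries the PTH signal into the tubule cell, read 12.97, 13.06 and 13.10 in ICD kidneys, against 13.12, 13.00 and 12.96 in WT kidneys (1417092_at). The lowest and the highest of the 6 values both came from WT kidneys. The difference was 0.017 (interval -0.15 to 0.19), or 1.01-fold with an interval of 0.900 to 1.14. Without WT 3 it was -0.017 (interval -0.21 to 0.18).

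Kl encodes klotho, which turns an FGF receptor into a high-affinity receptor for FGF23 and is also shed into blood. The bright probe set 1423400_at read 12.92, 12.90 and 12.99 in ICD kidneys, against 12.90, 12.88 and 12.77 in WT kidneys. The groups did not overlap, but ICD 2 and WT 1 both rounded to 12.90 and WT 3 was the lowest array. The difference was 0.088 (interval -0.072 to 0.25), or 1.06-fold with an interval of 0.951 to 1.19, and 0.046 without WT 3 (interval -0.13 to 0.22). The dimmer probe set 1451892_at read 7.75, 7.86 and 7.75 in ICD kidneys, against 7.94, 7.71 and 7.90 in WT kidneys. It overlapped and had the opposite sign, at -0.062 (interval -0.25 to 0.13), and -0.038 without WT 3.

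Groups without overlap were found for 2 of the 15 member probe sets, 1 each of Kl and Slc20a1, against 10.5% of all probe sets. Without WT 3 there were 3 of 15, with 1451768_a_at of Slc20a2 added, against 19.5%. The share of members was thus near the background in both cases.

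Fgfr1, which together with klotho forms the main renal receptor of FGF23, had 3 probe sets. The brightest, 1424050_s_at, read 9.28, 9.35 and 9.44 in ICD kidneys, against 9.32, 9.32 and 9.38 in WT kidneys. The ICD range enclosed the WT range, and the difference was 0.017 (interval -0.15 to 0.18), and 0.036 without WT 3. At 1425911_a_at the ICD arrays read 8.56, 8.79 and 8.66, against 8.62, 8.50 and 8.59 in WT arrays. The difference was 0.10 (interval -0.086 to 0.29), 0.11 without WT 3 and 0.039 without ICD 2, the highest array. At the dim 1436551_at the ICD arrays read 6.67, 6.48 and 6.58, against 6.60, 6.51 and 6.69 in WT arrays, a difference of -0.017 (interval -0.20 to 0.17), and 0.029 without WT 3.

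**Figure D2:**
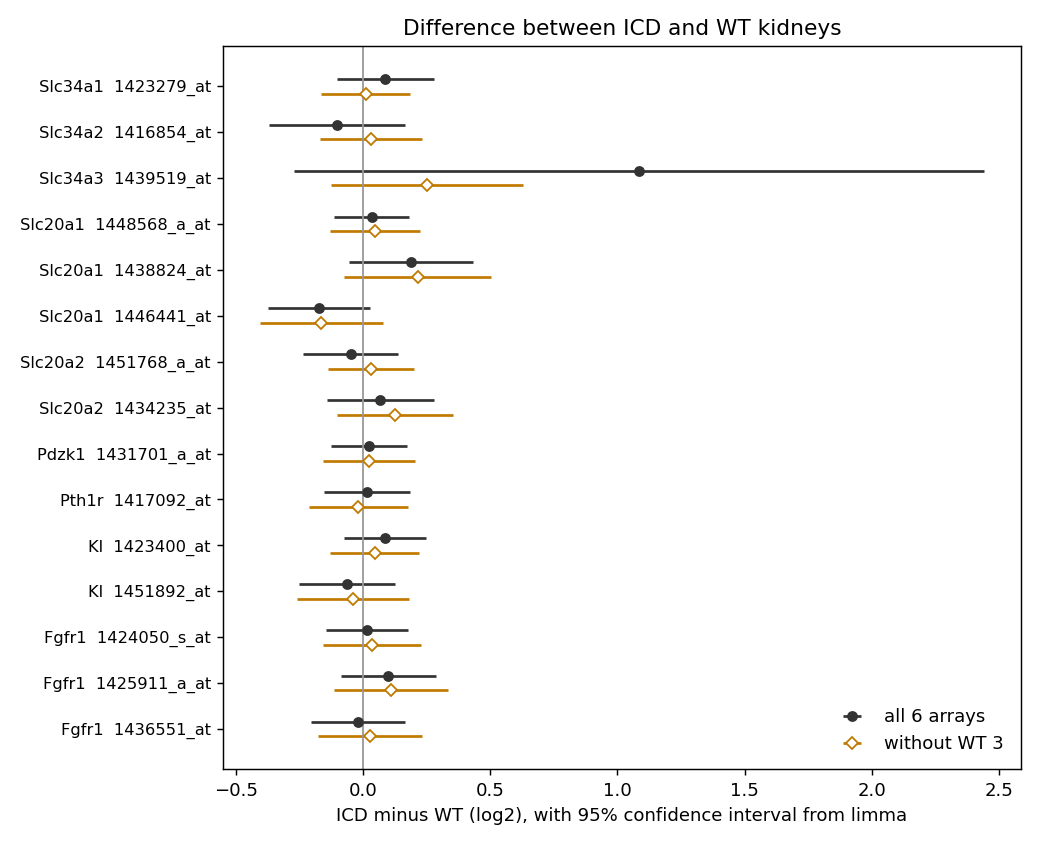
Difference between ICD and WT kidneys (ICD minus WT, log2) for each member probe set, with 95% confidence intervals from limma; filled circles use all 6 arrays and open diamonds leave out WT 3. All intervals include 0, and the Slc34a3 estimate moves to 0.25 without WT 3, against 1.09 with all arrays.

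Differences were above 0 for 10 of the 15 member probe sets, where 47.2% of all probe sets were higher in ICD kidneys. Without WT 3 there were 12 of 15, against 48.4%. The median difference of the members was 0.026 with all arrays and 0.032 without WT 3, and that of all probe sets was -0.0061 and -0.0035. In 4 of the 15 probe sets the sign turned when WT 3 was left out: Slc34a2, Pth1r, 1451768_a_at of Slc20a2 and 1436551_at of Fgfr1. WT 3 was the lowest array for 4 of the 15 (the bright probe sets of Slc34a1, Slc34a3, Pth1r and Kl) and the highest for 4. Over all probe sets it was the lowest for 16.8% and the highest for 20.0%. WT 2 was the lowest for 6 of the 15, whereas it was the lowest for 17.6% of all probe sets.

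Markers of nephron segments were read beside these values, as the mean log2 level of the brightest probe set of each gene. For early segments of the proximal tubule, where NaPi-IIc is found and NaPi-IIa is most abundant, all 10 markers were measured and their mean was 12.19 to 12.29 in ICD arrays and 11.10 to 12.32 in WT arrays. The low end was WT 3, which stood at -1.14 from the median of the other arrays and was the lowest array for 8 of the 10 markers. The markers were shifted unequally. Slc5a12, a lactate transporter of the early segments, read 4.12 on WT 3 and 9.27 to 10.47 on the other arrays, a deviation of -5.70 that weighed most in the mean. Cubn, the co-receptor cubilin, read 12.50 on WT 3 and 12.51 to 12.64 on the others, so that it was lowest by little. Slc22a6 and Slc13a3 also lay close to the median of the other arrays, at -0.015 and -0.041. The remaining markers lay at -1.64 to -0.31. For the last segment of the proximal tubule all 7 markers were measured, with means of 12.35 to 12.50 in ICD arrays and 12.35 to 12.57 in WT arrays, and WT 3 lay 0.15 above the median of the other arrays. The labels name the tissue only as adult kidney. Fewer cells of a type in the piece taken and less RNA per cell cannot be told apart in such RNA, and the part of this shift in the Slc34a3 and Slc34a1 values was not tested.

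The other marker lists varied less on WT 3. Podocyte markers, 6 of 7 measured, averaged 8.30 to 8.42 in ICD arrays and 7.83 to 8.07 in WT arrays, without overlap. Principal cell markers, all 8 measured, averaged 9.43 to 9.53 in ICD arrays and 9.57 to 9.67 in WT arrays, also without overlap. Markers of the distal convoluted and connecting tubule, where klotho is most abundant, were measured for 7 of 8 genes and averaged 11.06 to 11.37 in ICD arrays and 11.20 to 11.35 in WT arrays. Of the thick ascending limb all 7 markers were measured, at 11.84 to 11.96 in ICD arrays and 11.94 to 12.05 in WT arrays. Intercalated cell markers, 5 of 6 measured, averaged 9.50 to 9.72 in ICD arrays and 9.60 to 9.73 in WT arrays. Endothelial markers, all 7 measured, averaged 8.47 to 8.71 in ICD arrays and 8.18 to 8.77 in WT arrays, and markers of stroma and smooth muscle, all 7 measured, 9.46 to 9.61 in ICD arrays and 9.25 to 9.64 in WT arrays. WT 3 was the lowest array for both. Leukocyte markers, all 6 measured, averaged 6.99 to 7.27 in ICD arrays and 7.04 to 7.19 in WT arrays. Blood markers, 2 of 4 measured, averaged 6.36 to 6.58 in ICD arrays and 6.59 to 6.76 in WT arrays, just without overlap. Of these, Hba-a1 was dim, at 4.77 to 4.97, and differed by 0.0073, so the list followed Alas2, which differed by -0.39. Groups did not overlap for 10.5% of all single probe sets, and no such share was computed for averaged lists. Adipose markers, 4 of 5 measured, averaged 10.62 to 11.13 in ICD arrays and 10.20 to 10.83 in WT arrays. No marker of any list passed the limma threshold. Averaged over the 6 arrays, single tubular markers lay at or above 7.42 and podocyte markers at or above 6.78. The dimmest leukocyte marker averaged 5.88 and the dimmest blood marker 4.85. Presence on each array was not established, since detection calls were not used here. Their part in the member values was not tested.

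**Figure D3:**
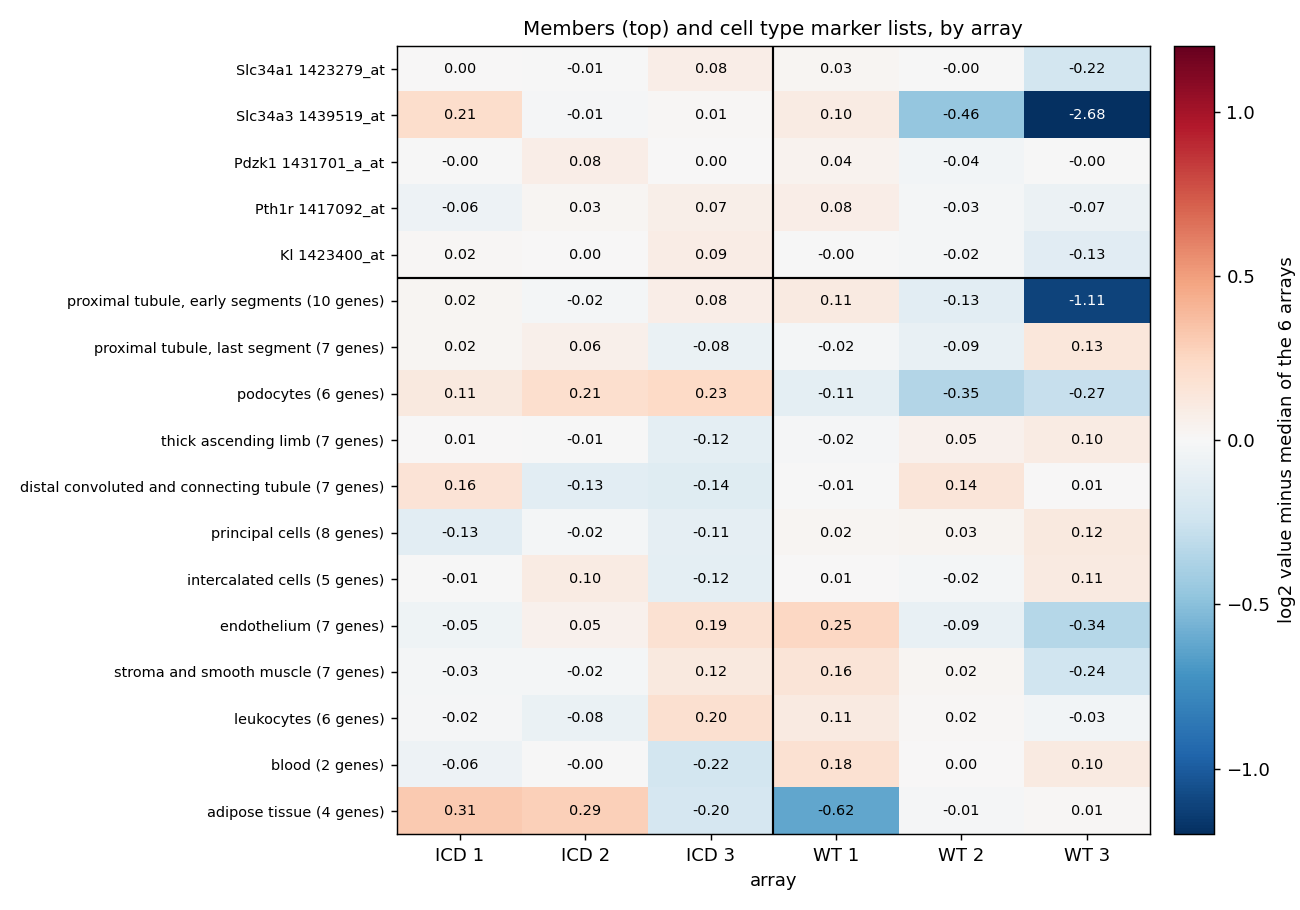
Log2 value minus the median of the 6 arrays for 5 bright member probe sets (top) and for the mean of each cell type marker list (bottom), with ICD arrays left and WT arrays right; the colour scale is capped below the largest shift. WT 3 is low in Slc34a3 and in the early proximal tubule list but not in the last segment list or in Pdzk1. By smaller shifts it is also the lowest array for Slc34a1, Pth1r and Kl and for the lists of endothelium and of stroma and smooth muscle.

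Profiles most like that of Slc34a3 were sought among 19654 probe sets of other genes of at least median brightness. The highest Pearson correlations over the 6 arrays belonged to Spred1, an inhibitor of the Ras-MAP kinase pathway, Grb7, Sae1, Bcor and Celsr2, each at 0.99. Without WT 3 they were 0.99 for Spred1, 0.95 for Grb7, 0.80 for Sae1, 0.79 for Bcor and 0.73 for Celsr2. Spred1 read 7.48, 7.43 and 7.45 in ICD kidneys, against 7.45, 7.35 and 7.09 in WT kidneys, which was lowest on the same array as Slc34a3 but by much less. In all, 102 of the probe sets reached 0.95, which describes 6 arrays of which 1 stands apart. Among members, Slc34a1 correlated with Slc34a3 at 0.95, and at 0.24 without WT 3.

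For Slc34a1 the most like profiles were those of Tmem108, Slc5a12, H2-D1, Thap11 and Ppp1cc, each at 0.99 over the 6 arrays and at 0.86 to 0.97 without WT 3. Kl followed Slc34a1 at 0.95, and at 0.90 without WT 3, whereas Pdzk1 did so at 0.11. On the 5 arrays other than WT 3 the Slc34a1 and Kl values spanned only 0.084 and 0.11 on the log2 scale.

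The other genes of the pathway comprised 49 names in 6 lists, of which 44 were measured by 114 probe sets and 5 were not analysed here. None passed the limma threshold, with or without WT 3. At unadjusted p under 0.05 there were 2 of 114, 1 higher and 1 lower in ICD kidneys, or 1.75% against 5.86% of all probe sets. Without WT 3 there were 4, or 3.51% against 5.53%. Those were 1420847_a_at of Fgfr2 (0.20), 1422020_at of Spry4 (0.31), 1444168_at of Xpr1 (0.32) and 1457648_x_at of Fam20c (-0.24), with the difference without WT 3 in brackets. Of the 114, 66 were higher in ICD kidneys with all arrays (median 0.014) and 52 without WT 3 (median -0.0054).

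Among scaffolds and sorting proteins, 10 of 15 probe sets were higher in ICD kidneys (median 0.014), and 7 of 15 without WT 3 (median -0.0081). Slc9a3r1, the PDZ protein NHERF1 that anchors NaPi-IIa, read 12.68, 12.79 and 12.78 in ICD kidneys, against 12.77, 12.74 and 12.67 in WT kidneys. The difference was 0.023 (interval -0.14 to 0.18), and -0.0081 without WT 3. Ezr, ezrin, which ties such scaffolds to actin, read 11.86, 12.02 and 11.89 in ICD kidneys, against 11.84, 11.81 and 11.79 in WT kidneys. The groups did not overlap, and the difference was 0.11 (interval -0.046 to 0.27, limma adjusted p = 0.927). It was 0.10 without WT 3 and 0.066 without ICD 2. Its other probe set, 1456725_x_at, had the opposite sign, at -0.11 and at -0.052 without WT 3.

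In the PTH signalling list, which covers G proteins, kinases, arrestins and the regulator Rgs14, 14 of 33 probe sets were higher in ICD kidneys (median -0.016), and 16 of 33 without WT 3 (median -0.0040). Prkca, protein kinase C alpha, read 6.25, 6.12 and 6.22 in ICD kidneys, against 6.46, 6.32 and 6.31 in WT kidneys at 1427562_a_at. The groups did not overlap, and the difference was -0.17 ± 0.074 (SE, limma adjusted p = 0.852), and -0.20 without WT 3. Of the other Prkca probe sets, 1450945_at differed by -0.19 (-0.25 without WT 3) and the brightest, 1437393_at, by 0.081 (0.060 without WT 3). Rgs14, which binds NHERF1 and blunts the PTH response of NaPi-IIa, differed by 0.049 with all arrays and 0.12 without WT 3. Sgk1, a kinase induced by mineralocorticoids, differed by -0.15 with all arrays and -0.088 without WT 3.

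In the FGF23-klotho list 17 of 23 probe sets were higher in ICD kidneys (median 0.032), and 12 of 23 without WT 3 (median 0.012). Dusp6, a phosphatase induced by FGF signalling through ERK, read 9.65, 9.46 and 9.69 in ICD kidneys, against 9.51, 9.26 and 9.21 in WT kidneys. ICD 2 lay below WT 1, so the groups overlapped. The difference was 0.28 (interval 0.044 to 0.51, limma adjusted p = 0.798), and 0.22 (interval -0.039 to 0.47) without WT 3. Egr1, an immediate early gene used as a readout of FGF23 in kidney and also raised by other stimuli, differed by 0.35 (limma adjusted p = 0.917), and by 0.37 without WT 3. The Spry genes of the same list were mixed. Spry1 differed by 0.029 (-0.018 without WT 3), and the Spry2 probe sets by 0.038 and -0.083 (-0.053 and -0.16 without WT 3). The Spry4 probe sets differed by -0.020 to 0.18 with all arrays and by -0.070 to 0.31 without WT 3. Fgfr4, another FGF receptor of the proximal tubule, read 9.46, 9.58 and 9.45 in ICD kidneys, against 9.54, 9.36 and 9.56 in WT kidneys, a difference of 0.0091 (interval -0.18 to 0.19), and 0.047 without WT 3.

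Klotho is shed by the proteases Adam10 and Adam17 and by Bace1, for which 6 of 11 probe sets were higher in ICD kidneys (median 0.015), and 5 of 11 without WT 3 (median -0.0023). Among genes of phosphate export, hormones and local regulators, 15 of 24 probe sets were higher (median 0.013), and 9 of 24 without WT 3 (median -0.014). Xpr1, the phosphate exporter, read 11.24, 11.26 and 11.29 in ICD kidneys, against 11.28, 11.15 and 11.21 in WT kidneys at its brightest probe set. The difference there was 0.049 (interval -0.10 to 0.20), and 0.048 without WT 3. Of the other Xpr1 probe sets, 1444168_at differed by 0.24 (0.32 without WT 3) and 1426053_a_at by 0.20 (0.15 without WT 3). The rest differed by 0.0066 to 0.050 with all arrays and by -0.036 to 0.013 without WT 3.

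**Figure D4:**
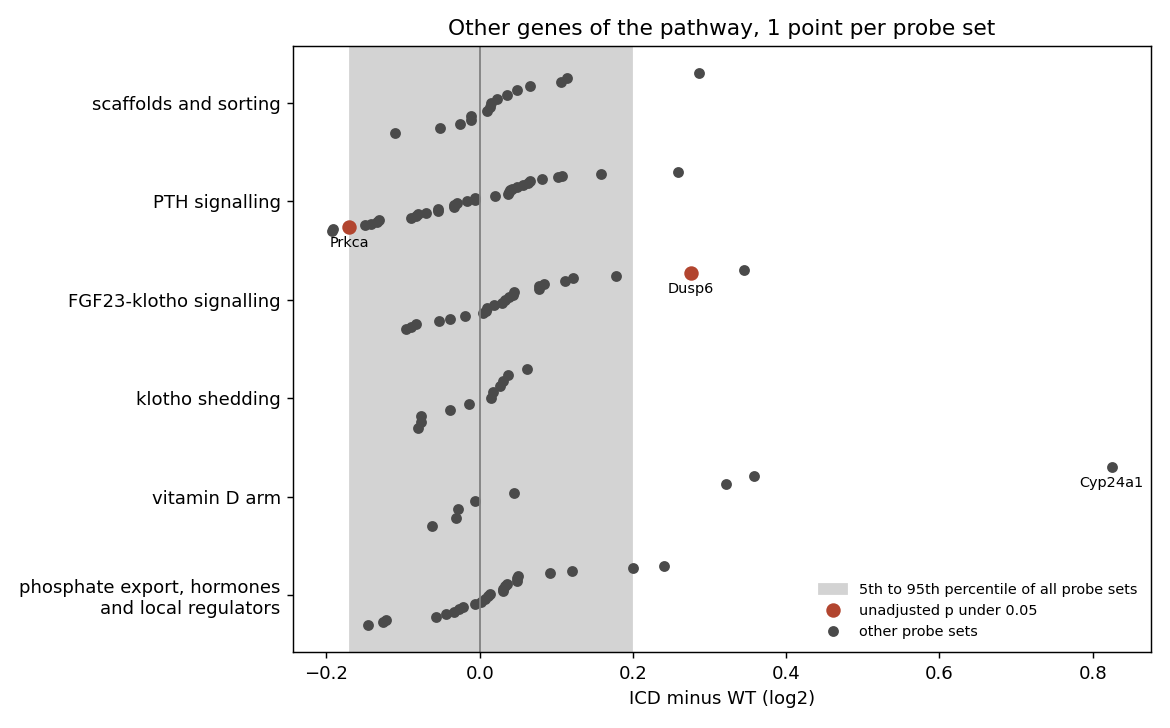
Difference between ICD and WT kidneys (ICD minus WT, log2) for the other pathway genes, 1 point per probe set, by list; the grey band is the 5th to 95th percentile of all 45037 probe sets, from -0.17 to 0.20. Of the 114 probe sets, Dusp6 and 1 of Prkca had an unadjusted limma p under 0.05, and Cyp24a1 had the largest difference.

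The vitamin D arm links phosphate to FGF23 and PTH, which regulate the enzymes that make and break down the active hormone; 4 of its 8 probe sets were higher in ICD kidneys (median 0.019), and 3 of 8 without WT 3 (median -0.036). Vdr, the vitamin D receptor, read 11.54, 11.44 and 11.50 in ICD kidneys, against 11.53, 11.59 and 11.37 in WT kidneys. Its difference was -0.0065 (interval -0.19 to 0.17), and -0.070 without WT 3. Cyp24a1, the 24-hydroxylase that inactivates the hormone, read 10.57, 8.69 and 9.38 in ICD kidneys, against 9.99, 9.27 and 6.91 in WT kidneys (1418866_at). It was number 7 in the order of how far WT 3 lay below the other arrays, directly after Slc34a3. The remaining 5 arrays spanned 1.88 for Cyp24a1 and 0.67 for Slc34a3. The Cyp24a1 difference was 0.82 (interval -0.89 to 2.54) with all arrays and -0.082 without WT 3. Its other probe set, 1418867_at, differed by 0.32 with all arrays and -0.13 without WT 3. Cyp27b1, the 1-alpha-hydroxylase, read 6.23, 7.06 and 6.10 in ICD kidneys, against 6.72, 5.87 and 5.72 in WT kidneys, with overlap. Its difference was 0.36 (interval -0.34 to 1.06), and 0.16 without WT 3.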

How the data were processed

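Per the submitters' processing notes, the authors made the deposited log2 values with RMA; version, chip definition and filters are not given in the sources used here. The table held 45101 rows and 1 column per array. The 64 control rows were left out. The platform annotation gave 1 gene symbol for 34945 probe sets, and 34741 of these were found by Entrez identifier in the RefSeq table of GRCm38.p6. Groups and replicate numbers came from the sample titles, and the labels call the replicates biological.

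ICD and WT arrays were compared over all 45037 probe sets with limma 3.58.1 in R 4.3.3 (genotype as the only term, 2-sided, Benjamini-Hochberg adjustment, threshold adjusted p under 0.05). The script was tested on simulated data. An exact permutation test of 3 against 3 cannot go below 0.1 and was not used. The number of arrays limits the precision.

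The members and lists were chosen with earlier results of these data known. Named were every member probe set, pathway probe sets with unadjusted p under 0.05, and the 5 profiles most like those of Slc34a3 and Slc34a1. The brightest probe set of Slc9a3r1, Ezr, Fgfr4, Vdr, Cyp27b1, Cyp24a1 and Xpr1 was named as well. Egr1, Rgs14, Sgk1 and the further probe sets of Ezr and Prkca were chosen after their values were seen. The Spry genes and the further probe sets of Xpr1 and Cyp24a1 were also named outside this rule. Alternatives were each array left out, the replicate number as a block, a trended and robust prior, array weights, renewed quantile normalization, median centring, bright probe sets only, and the mean of a gene's probe sets. Arrays with the same replicate number deviated from their group means with correlations of -0.0057, 0.0077 and -0.047 over all probe sets.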

Additional observations from a re-analysis of the deposited data

How the results depend on the processing

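No member probe set passed the limma threshold under any of the 12 alternatives (0 in each, lowest adjusted p 0.606), and no member gene did with the mean of its probe sets (0). With the replicate number as a block 0 member probe sets, 0 pathway probe sets and 0 of all probe sets passed. At unadjusted limma p under 0.05 there were 2664 of all probe sets, against 2641 without the block. The titles do not say whether animals with the same replicate number were paired. Over all probe sets, 1 passed with the trended and robust prior, and 0 to 1 when single arrays were left out (1 without ICD 1, ICD 2 or WT 3). With single arrays left out, the sign turned for 6 member probe sets, with ranges of -0.19 to 0.032 for Slc34a2, -0.094 to 0.031 for 1451768_a_at of Slc20a2, -0.0030 to 0.045 for Pdzk1, -0.017 to 0.061 for Pth1r, and -0.027 to 0.058 and -0.064 to 0.031 for 1424050_s_at and 1436551_at of Fgfr1. It also turned for Slc9a3r1 (-0.0081 to 0.059), Fgfr4 (-0.055 to 0.047), Vdr (-0.070 to 0.041) and Cyp24a1 (-0.082 to 1.46). Array weights turned the sign of 1436551_at of Fgfr1 (0.0047), Fgfr4 (-0.0032) and Vdr (0.0017). The other member values kept their sign. Cyp27b1 ranged from 0.057 (without ICD 2) to 0.67 (without WT 1). Slc34a3 has 1 probe set here, so its reading on WT 3 has no second measurement. Dim probe sets, among them 1446441_at of Slc20a1, are compressed by RMA, and detection calls were not used here.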
